A study of Mus musculus with 18 samples.

Results

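Costimulatory and checkpoint receptors are the surface proteins that raise or lower the response of a T cell to antigen. The 9 genes of this class read here, Cd27, Cd28, Ctla4, Pdcd1, Lag3, Btla, Tnfrsf4, Tnfrsf9 and Tnfrsf18, were taken by name with every probe set on the array that carried that symbol alone. They had 12 probe sets, out of 34945 single-symbol probe sets for 18193 genes in the whole table. Gene expression was measured on 18 Affymetrix Mouse Genome 430 2.0 arrays of naive CD4 T cells of C57BL/6J mice, sorted from spleen and lymph nodes as CD44-, CD62L+ and CD25- cells. The STAT3-deficient cells, labelled Cd4-Cre_C57BL6-STAT3<tm1Dlv>, carry a Stat3 allele that a Cre recombinase under the Cd4 promoter removes in T cells, and the wild type (WT) cells carry no such label. Cells of each genotype were held for 3 h with 20 ng/ml interleukin 27 (IL-27), with 20 ng/ml interleukin 6 (IL-6) or in medium alone, which gave 6 groups of 3 arrays. The series calls the 3 arrays biological triplicates and the labels do not tie them to separate mice, so the p-values measure the spread between these arrays, whose number limits the precision.

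As background, a naive T cell needs a signal from its antigen receptor together with a second signal from a costimulatory receptor. CD28 gives that second signal when it binds CD80 or CD86, and CTLA-4 binds the same ligands and restrains the cell. CD27, OX40 (Tnfrsf4), 4-1BB (Tnfrsf9) and GITR (Tnfrsf18) are costimulatory receptors of the tumour necrosis factor receptor family that act through TRAF proteins. PD-1 (Pdcd1), LAG-3 (Lag3) and BTLA (Btla) are inhibitory receptors, of which PD-1 and LAG-3 are best known from activated and exhausted cells. IL-6 and IL-27 share the receptor chain gp130, which activates STAT3.

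Several of these genes lie side by side. In the RefSeq gene table (GRCm38.p6), Cd28, Ctla4 and Icos are successive coding genes on chromosome 1, and Tnfrsf4 and Tnfrsf18 are successive coding genes on chromosome 4. The RefSeq promoter table held 7 of the 9 members, and Cd28 and Lag3 were not in it. The 250 bases before the start are printed, 5′ to 3′ in the sense of the gene, for Cd27, Tnfrsf4 and Tnfrsf18, the members with an entry that were lower with a cytokine in the tests below. They lie at chr6:125237028-125237277 on the minus strand, chr4:156013445-156013694 on the plus strand and chr4:156026072-156026321 on the plus strand of GRCm38.p6. Capitals mark the STAT-type pattern TTCNNNGAA, which reads the same on both strands.
Cd27: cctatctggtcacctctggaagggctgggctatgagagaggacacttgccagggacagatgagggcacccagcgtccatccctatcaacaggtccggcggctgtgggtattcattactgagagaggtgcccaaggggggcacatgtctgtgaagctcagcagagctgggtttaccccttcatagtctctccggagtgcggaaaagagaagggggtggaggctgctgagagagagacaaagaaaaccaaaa
Tnfrsf4: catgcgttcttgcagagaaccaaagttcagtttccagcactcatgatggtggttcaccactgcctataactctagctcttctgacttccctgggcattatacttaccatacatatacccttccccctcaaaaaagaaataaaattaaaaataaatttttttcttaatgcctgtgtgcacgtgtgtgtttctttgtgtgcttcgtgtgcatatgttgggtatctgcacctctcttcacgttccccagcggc
Tnfrsf18: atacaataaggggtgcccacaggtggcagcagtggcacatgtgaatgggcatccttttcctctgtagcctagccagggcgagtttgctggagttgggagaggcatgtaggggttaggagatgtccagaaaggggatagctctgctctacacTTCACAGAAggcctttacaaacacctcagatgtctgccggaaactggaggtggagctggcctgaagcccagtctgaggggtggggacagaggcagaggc
The Tnfrsf18 window holds the pattern once, starting 99 bases before the gene's start, and the Cd27 and Tnfrsf4 windows do not hold it. Of the 8 windows of members, 2 hold the pattern, the other being that of the second Tnfrsf9 start. The pattern is in 7.02% of the 32851 windows of this length in the table. A match in these letters is a description and shows no binding.

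The deleted gene was read by 4 probe sets, and whether they lie inside the removed exons is not known here. Stat3 signal on 1460700_at had a lowest, median and highest value of 1126, 2477 and 4608 units on the 9 STAT3-deficient arrays, against 2293, 7467 and 10319.5 units on the 9 WT arrays. In medium, 1460700_at and 1426587_a_at were lower in STAT3-deficient cells, by log2 differences of -1.11 and -0.92, 1424272_at was higher by 0.80 and 1459961_a_at was not called. All 9 measured CD4 T cell markers were above background in all 6 groups. The B cell markers, 12 genes, summed to 3126 to 6842 units on STAT3-deficient arrays, against 1187 to 1670 units on WT arrays, and the 10 myeloid markers to 2838 to 7855 units, against 649 to 996 units. Of the 12 B cell genes, 6 were above background in each STAT3-deficient group and 2, Cd74 and Ms4a1, in each WT group. Pax5, which defines B cells, was above background on 0 of 18 arrays. Foxp3 and Il2ra, which mark regulatory T cells, known carriers of Ctla4, Tnfrsf4 and Tnfrsf18, were above background on 1 and on 3 of 18 arrays. Of the other genes on the list of 6 for these cells, Ikzf2 was above background in all 6 groups. Nrp1 was so in each WT group and in STAT3-deficient cells in medium, and Il10 and Itgae in no group. Of the tested markers, 9 of 10 of the B cell list and 5 of 8 of the myeloid list were called higher in STAT3-deficient cells in medium, and none of either list was called in any comparison of a cytokine with medium or of the cytokines with each other.

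Signal is given below in units after quantile normalisation. Differences are on the scale of log2 of the signal plus 32, with the standard error (SE) of a limma model over all 18 arrays. The added 32 shrinks the differences of weak probe sets. A probe set was called at a Benjamini-Hochberg adjusted p under 0.05 over the 26860 probe sets tested, and every adjusted p is of this kind. As an estimate of background, the 90th percentile of 51 probe sets for genes of other tissues, such as liver, muscle and eye, was taken on each array, and lay between 117 and 227 units.

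Of the 12 probe sets, 9 passed the filter on dim signals, which asked that the signal exceed the array median on 3 arrays or more. Those of Cd27 (1452389_at), Cd28 (1417597_at and 1437025_at), Ctla4 (1419334_at), Btla (1455656_at), Tnfrsf4 (1420351_at) and Tnfrsf18 (1422303_a_at) were above background on 18 of 18 arrays. The 3 that did not pass were that of Lag3 (1449911_at) and 2 of the 3 for Tnfrsf9, and each of these was above background on 0 of 18 arrays. Pdcd1 (1449835_at) was above background on 4 of 18 arrays, and on all 3 arrays of a group only in WT cells with IL-6. Its mean signal was alike in WT cells with IL-6 and in medium (180 and 182 units). The background estimates were 126, 117 and 135 units on the WT arrays with IL-6, against 165, 177 and 147 units on those in medium. The third Tnfrsf9 probe set, 1460469_at, was above background on 14 of 18 arrays.

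**Figure D1:**
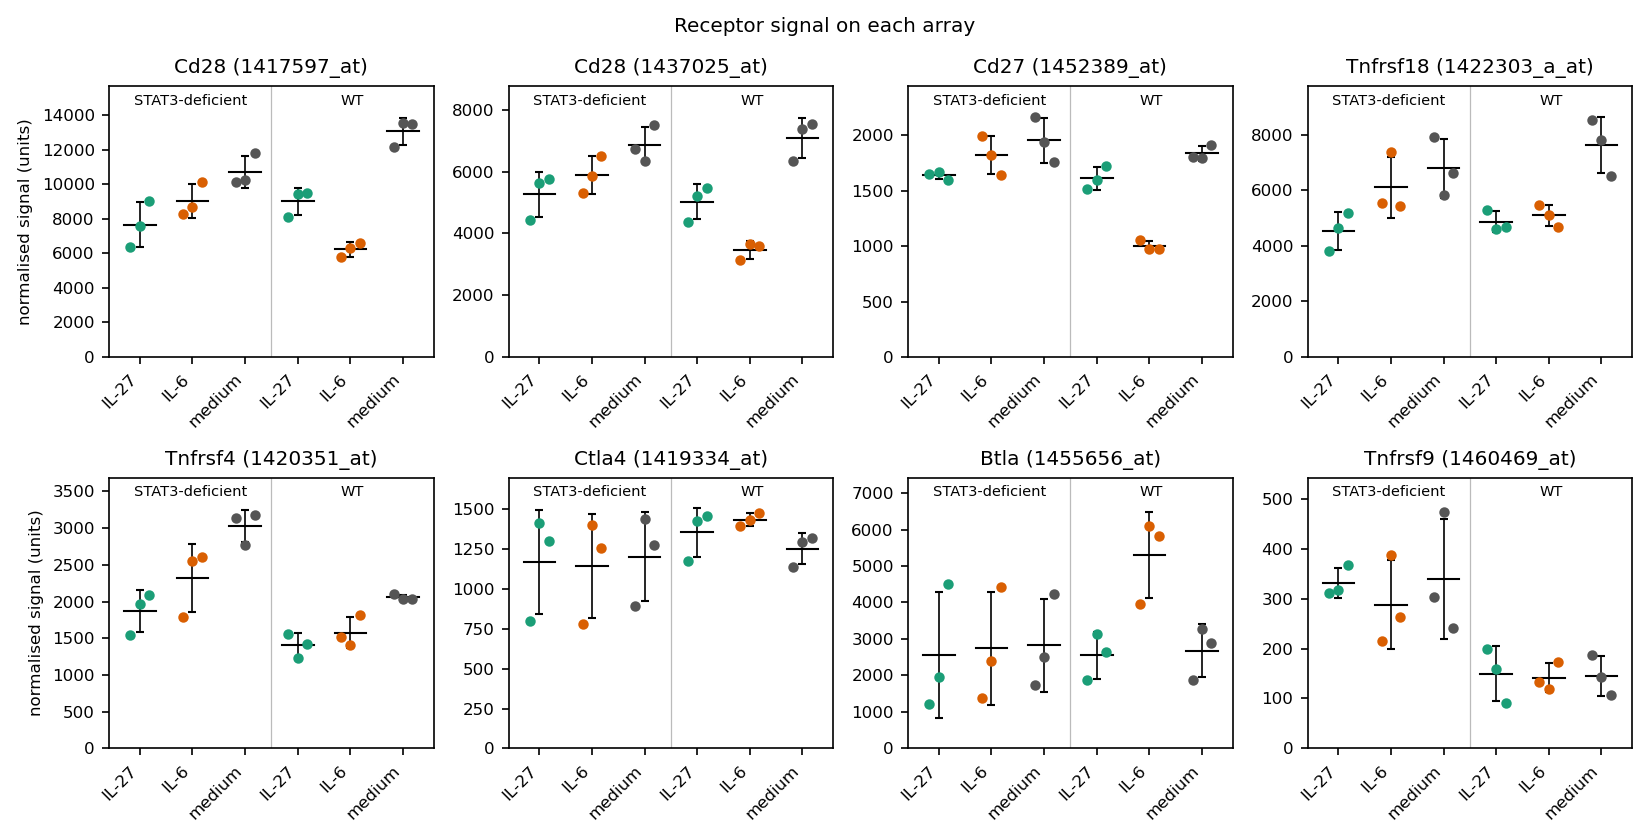
Normalised signal (units, vertical axis) of both Cd28 probe sets and of the strongest probe set of Cd27, Tnfrsf18, Tnfrsf4, Ctla4, Btla and Tnfrsf9, by group; points are arrays, the line is the mean and the bar the SD (n = 3). Cd27 and both Cd28 probe sets are lowest in WT cells with IL-6, and the 9 STAT3-deficient arrays of Tnfrsf9 (215 to 474 units) lie above the 9 WT arrays (90.5 to 200.0 units).

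The first question was how IL-6 changes the receptors in WT cells. Cd28 and Cd27 fell to 0.477 and 0.552 times their level in medium, and Tnfrsf18 to 0.673 times. Of the 9 tested probe sets, 4 were called lower and 0 higher, against 3.22% called lower and 2.97% called higher of all probe sets tested (6.19% in either direction). The 4 stand for 3 genes, since 2 of them read Cd28. The median difference of the 9 was -0.39, beside -0.01 over all probe sets tested.

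Cd28 on 1417597_at had 5772, 6307 and 6608 units in WT cells with IL-6, against 12179.9, 13561 and 13526 units in WT cells in medium. The highest IL-6 array lay below the lowest array in medium, and the log2 difference was -1.07 ± 0.11 (SE, n = 3 per group, adjusted p = 2.75e-06). This was the 180th lowest difference of 26860. The second Cd28 probe set, 1437025_at, had 3128, 3650.0 and 3603 units with IL-6, against 6342, 7392 and 7549 units in medium, a difference of -1.03 ± 0.12 (adjusted p = 7.84e-06). The difference between the probe sets was smaller than either SE.

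Cd27 had 1052, 974 and 978 units in WT cells with IL-6, against 1803, 1796 and 1917 units in WT cells in medium. All arrays with IL-6 lay below all arrays in medium, with a difference of -0.86 ± 0.10 (adjusted p = 1.12e-05). Tnfrsf18 had 5475, 5102 and 4688 units with IL-6, against 8514, 7798 and 6525 units in medium. Its ranges did not overlap either, and the difference was -0.57 ± 0.14 (adjusted p = 0.0158). The call for Tnfrsf18 was lost when any one of 4 arrays was left out, the second and the third with IL-6 and the first and second in medium, at adjusted p of up to 0.0977. It was also lost with median centring (-0.59, adjusted p = 0.0579) and with no variance trend (adjusted p = 0.0515).

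Tnfrsf4 was not called with IL-6 in WT cells. Its 3 arrays had 1513, 1409 and 1815 units with IL-6, against 2102, 2039.8 and 2039 units in medium, so that the ranges did not overlap while the difference of -0.39 ± 0.15 missed the threshold (adjusted p = 0.165). Ctla4 had 1393, 1435 and 1479 units with IL-6, against 1140.3, 1298 and 1320.0 units in medium, a difference of 0.19 ± 0.21 (adjusted p = 0.772). Its interval ran from -0.26 to 0.65, so neither a rise nor a fall of a size within it is excluded. In the row of neighbours on chromosome 1, the differences were -1.07 for Cd28, 0.19 for Ctla4 (not called) and 1.09 ± 0.14 for Icos (adjusted p = 3.96e-05), the inducible costimulator, which is related to CD28.

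Btla had the largest difference among the 5 probe sets that were not called. It had 3952, 6107 and 5831 units in WT cells with IL-6, against 1873, 3283 and 2887 units in WT cells in medium. Every IL-6 array lay above every array in medium, and the mean signal was 5296 ± 1173 units against 2681 ± 727 units (SD, n = 3 each). The log2 difference of 0.99 ± 0.42 was not called (adjusted p = 0.245). The shared SE of Btla includes the STAT3-deficient arrays, where it ran from 1211 to 4495 units within the IL-27 group alone. With only the WT arrays compared, the difference of 0.99 was called (adjusted p = 0.0114), as it was at 0.0309 without the STAT3-deficient arrays numbered 3. In 27 of 31 alternatives it was not called, at adjusted p of up to 0.598.

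Among the genes around these receptors, those lowered with IL-6 in WT cells included other inhibitory or adhesion receptors of T cells. Of 15 tested related receptors, 4 were called lower and 2 higher. Cd5, which restrains antigen receptor signalling, differed by -1.64 ± 0.11, Cd6, its close relative, by -1.37 ± 0.13, Cd96 by -1.14 ± 0.13 and Vsir, which encodes the checkpoint protein VISTA, by -0.57 ± 0.13 (adjusted p = 6.14e-09, 1.08e-06, 1.08e-05 and 0.00844). Icos and Slamf6, a receptor of the SLAM family, were the 2 called higher, Slamf6 by 0.75 ± 0.19 (adjusted p = 0.0230). Of 8 tested ligands, 1 was called, Cd274, the ligand of PD-1, which was higher by 0.60 ± 0.18 (adjusted p = 0.0476). Of 11 tested signalling partners, 2 were called lower, Traf5, an adaptor of CD27 and OX40, by 0.60 on the log2 scale (-0.60 ± 0.16, adjusted p = 0.0290) and Pik3r1, a subunit of PI3 kinase, at -0.49 ± 0.12 (adjusted p = 0.0203).

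Markers of the CD4 T cell itself moved with the members. Their summed signal, over 9 genes of which Cd5 is one, was 90360 to 92412 units in WT cells with IL-6, against 125135 to 128270 units in medium, and 7 of the 9 were called lower. A lower signal from fewer cells of a type and from less RNA per cell cannot be told apart in these bulk samples. The part of this shift in the results for Cd27, Cd28 and Tnfrsf18 was not tested.

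IL-27 in WT cells was the second comparison. Cd28, Tnfrsf18 and Tnfrsf4 fell to 0.689, 0.643 and 0.685 times their level in medium, while Cd27 was not called. Again 4 of 9 probe sets were called lower and 0 higher, against 1.07% lower and 1.99% higher of all probe sets tested (3.06% in either direction). The median difference of the 9 was -0.50, beside -0.03 over all probe sets. The comparisons of IL-27 and of IL-6 with medium share the arrays in medium.

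Cd28 on 1417597_at had 8112, 9457 and 9502 units in WT cells with IL-27, below the 3 arrays in medium given above, a difference of -0.54 ± 0.11 (adjusted p = 0.00816). The second probe set had 4387, 5223 and 5465 units with IL-27 and a difference of -0.50 ± 0.12 (adjusted p = 0.0218). For Tnfrsf18 the IL-27 arrays had 5302, 4619 and 4664 units, all below those in medium, with a difference of -0.64 ± 0.14 (adjusted p = 0.0120). Tnfrsf4 had 1565, 1235 and 1419.6 units with IL-27, also below all arrays in medium, with a difference of -0.55 ± 0.15 that lay just inside the threshold (adjusted p = 0.0491). Leaving out any one of the 6 arrays compared left 1 or 2 of the 4 calls, and the call of Tnfrsf4 was lost in 14 of 31 alternatives, at adjusted p of up to 0.224.

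Cd27 had 1513, 1600.4 and 1722 units in WT cells with IL-27, against 1803, 1796 and 1917 units in medium. The ranges did not overlap, but the difference of -0.19 ± 0.10 was not called (adjusted p = 0.490), and its interval ran from -0.40 to 0.03. Btla, at 1872, 3139 and 2647 units, overlapped the arrays in medium (-0.06 ± 0.42, adjusted p = 0.976). Pdcd1 had 91.5, 74.5 and 145 units, against 227, 174 and 145 units in medium, close to background, and was not called (-0.67 ± 0.29, adjusted p = 0.316). Of the 15 related receptors, 4 were called lower and 0 higher, namely Cd96, Cd5, Cd6 and Vsir (-0.83, -0.79, -0.76 and -0.50). The summed CD4 T cell markers lay at 95384 to 100805 units with IL-27, and 5 of 9 were called lower. Of the 8 ligands, Cd274 alone was called, at 4.28 ± 0.18 (adjusted p = 2.67e-12).

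**Figure D2:**
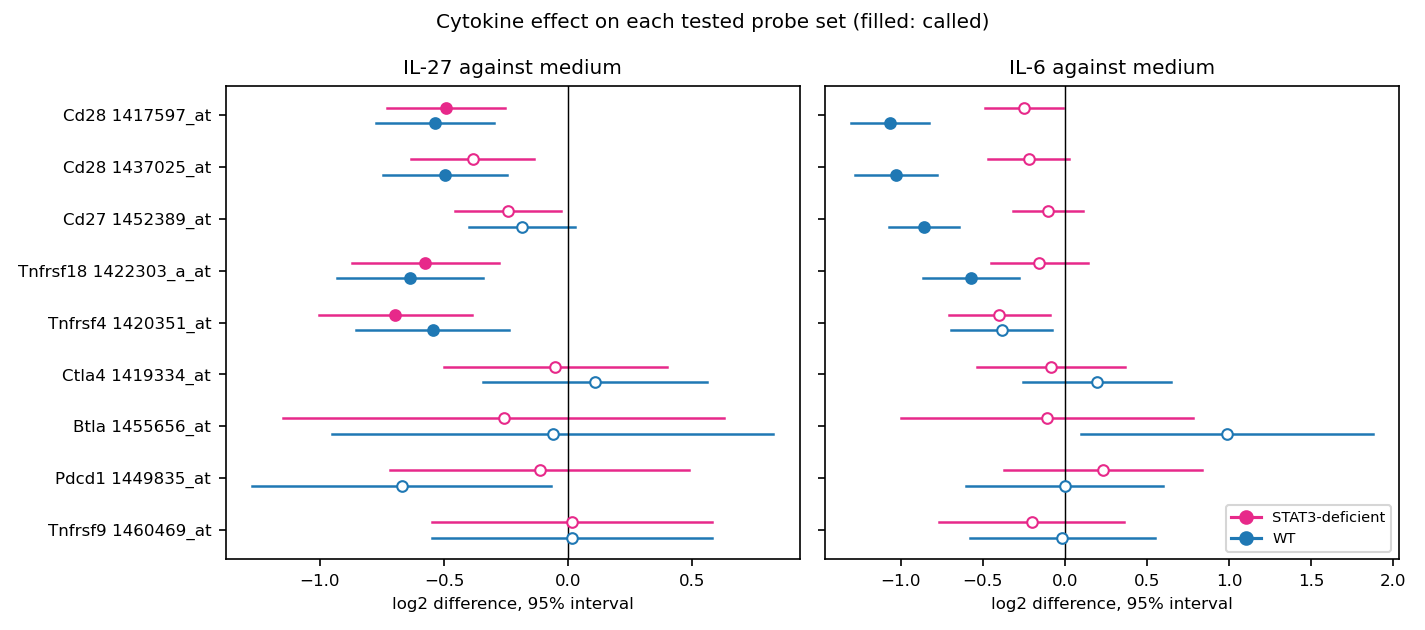
Log2 difference from medium (horizontal axis) of each tested member probe set with IL-27 (left) and IL-6 (right), in STAT3-deficient and WT cells; bars are 95% intervals of the limma model and filled points are called. With IL-6, Cd28 and Cd27 lie near -1 in WT cells and near 0 in STAT3-deficient cells. The IL-27 differences of Cd28, Tnfrsf18 and Tnfrsf4 lie side by side in both genotypes with quantile normalisation, shown here. They lie further apart with median centring, which is not shown.

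The direct comparison of IL-27 with IL-6 in WT cells set Cd27 and Cd28 apart from the others. Of 9 probe sets, 3 were called higher with IL-27 and 0 lower, against 1.28% higher and 1.05% lower of all probe sets tested (2.32% in either direction). Cd27 was higher with IL-27 by 0.67 ± 0.10 (adjusted p = 0.000513), and its arrays at 1513 to 1722 units all lay above the IL-6 arrays at 974 to 1052 units. The Cd28 probe sets were higher by 0.53 ± 0.11 and 0.53 ± 0.12 (adjusted p = 0.0112 and 0.0165), and neither overlapped between the cytokines. Without the second or the third IL-27 array, or without the first IL-6 array, the Cd27 call alone was left. Tnfrsf18 and Tnfrsf4 were not called and overlapped (-0.07 ± 0.14 and -0.16 ± 0.15). Btla had a difference of -1.05 ± 0.42 with no overlap and no call (adjusted p = 0.343). It was called with only the arrays compared (adjusted p = 0.0105), but not in 28 of 31 alternatives. Of the ligands, Tnfsf4, which encodes the ligand of OX40, was lower with IL-27, by a difference of -1.68 ± 0.26 (adjusted p = 0.000748), and Cd274 was higher by 3.68 ± 0.18 (adjusted p = 1.14e-10). Of the 15 related receptors 2 were called higher (Cd5, at 0.85, and Cd6, at 0.61) and 1 lower (Icos, at -0.64), and of the 11 signalling partners 1 was called, Traf5, at 0.67.

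The role of STAT3 was addressed by the same comparisons in STAT3-deficient cells. With IL-6, 0 of 9 member probe sets were called by limma, against 1.43% of all probe sets called (1.33% higher and 0.0968% lower). Of the 9, 2 had an unadjusted p under 0.05, a threshold at which the share of all probe sets was not taken. Cd28 on 1417597_at had 8308, 8689.8 and 10154 units with IL-6, against 10154, 10255 and 11802 units in medium. The highest IL-6 array reached the lowest in medium, and the difference was -0.25 ± 0.11 (adjusted p = 0.609). The second probe set had 5302, 5856 and 6525 units with IL-6, against 6748, 6348 and 7506 units in medium, and overlapped as well (-0.22 ± 0.12, adjusted p = 0.725).

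Cd27 in STAT3-deficient cells had 1992, 1826 and 1647 units with IL-6, against 2164, 1940.0 and 1765 units in medium, and the arrays of the groups were mixed (-0.10 ± 0.10, adjusted p = 0.907). Tnfrsf18 had 5528, 7373 and 5414 units, against 7917, 5831 and 6612 units in medium, also mixed (-0.16 ± 0.14, adjusted p = 0.896). With median centring, where the median of all probe sets was 0.12, these uncalled differences turned sign, to 0.07 and 0.06 for Cd28, 0.14 for Cd27 and 0.14 for Tnfrsf18. Tnfrsf4 was the member with no overlap: 1789, 2554 and 2613 units with IL-6, against 3138, 2772 and 3179 units in medium. Its difference of -0.40 ± 0.15 was not called (adjusted p = 0.403), and neither was the -0.39 ± 0.15 of WT cells. With median centring it was at -0.13 in STAT3-deficient cells (adjusted p = 0.857). The share of all probe sets without overlap is not given here, so nothing is read from the gap. Of the ligands, Cd274 was higher by 3.03 ± 0.18 and Cd86, a ligand of CD28 and CTLA-4, by 1.84 ± 0.43 (adjusted p = 9.13e-10 and 0.0326). Of the 15 related receptors, Cd5 alone was called, at -0.50 ± 0.11 (adjusted p = 0.0203).

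The difference in the IL-6 effect between the genotypes was itself tested. It was called for 3 of 9 member probe sets, 3 higher and 0 lower, against 1.25% higher and 0.964% lower of all probe sets (2.21% in either direction). The 3 read Cd27 and Cd28. The IL-6 effect on Cd27 was 0.76 ± 0.14 less negative in STAT3-deficient than in WT cells (adjusted p = 0.00607), with an interval from 0.45 to 1.06. For Cd28 the values were 0.82 ± 0.16 and 0.81 ± 0.17 (adjusted p = 0.00698 and 0.0116). Cd27 and Cd28 on 1417597_at kept this call in all 31 alternatives, and the second Cd28 probe set missed it in 1, without a variance trend (adjusted p = 0.0515). For Tnfrsf18 the difference of 0.42 ± 0.20 was not called (adjusted p = 0.435). Tnfrsf4 gave -0.01 ± 0.21, with an interval from -0.45 to 0.42. Btla gave -1.09 ± 0.60 (adjusted p = 0.529), and its interval from -2.35 to 0.16 was the widest of the members. Of the related receptors, Cd5, Cd6 and Cd96 were called in the same direction as Cd27 and Cd28, at 1.14, 1.04 and 0.94. Of the ligands Cd274 was called, at 2.43 ± 0.25. Unlike the fall of Cd27 and Cd28, its IL-6 effect was a rise in both genotypes, and the larger rise was in STAT3-deficient cells. The summed CD4 T cell markers, at 110947 to 124395 units with IL-6 and 124095 to 135003 units in medium, overlapped in STAT3-deficient cells, and 2 of 9 were called lower there.

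With IL-27, STAT3-deficient cells had less Tnfrsf4, Tnfrsf18 and Cd28, at 0.617, 0.671 and 0.710 times the level in medium. Of 9 probe sets, 3 were called lower and 0 higher, against 0.983% lower and 2.62% higher of all probe sets (3.6% in either direction). Tnfrsf4 had 1548, 1969 and 2089 units with IL-27, against 3138, 2772 and 3179 units in medium. None of these arrays overlapped, and the difference was -0.70 ± 0.15 (adjusted p = 0.00780). Cd28 on 1417597_at had 6393, 7604 and 9029 units, against 10154, 10255 and 11802 units in medium, with a difference of -0.49 ± 0.11 (adjusted p = 0.0149). The second Cd28 probe set had 4436, 5626 and 5759.6 units, below the arrays in medium, and was not called (-0.39 ± 0.12, adjusted p = 0.0911). Tnfrsf18 had 3814, 4651 and 5163 units, against 7917, 5831 and 6612 units in medium, with a difference of -0.58 ± 0.14 (adjusted p = 0.0237).

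Without the first STAT3-deficient array with IL-27, which held the lowest IL-27 signal of Cd28, Tnfrsf4 and Tnfrsf18 in that genotype, none of the 3 was called. Without the second IL-27 array or the third array in medium, 1 was called. With median centring, where the median of all probe sets was 0.10, none was called, and Tnfrsf4 was at -0.41, Tnfrsf18 at -0.26 and Cd28 at -0.13. Cd27 had 1655, 1675 and 1602 units with IL-27, below the 3 arrays in medium, and was not called (-0.24 ± 0.10, adjusted p = 0.271). The CD4 T cell markers summed to 98072 to 109571 units with IL-27, against 124095 to 135003 units in medium, and 4 of 9 were called lower. Of the related receptors, 2 were called lower (Cd5 at -0.72 and Cd96 at -0.57) and 2 higher (Icos at 0.61 and Cd2 at 0.38), and Cd86 was called higher among the ligands, at 2.12 ± 0.43 (adjusted p = 0.00538), with Cd274 at 4.53 ± 0.18. Of the 11 signalling partners, 1 was called, Prkcq, the kinase that links CD28 to NF-kappaB, at 0.69 ± 0.16 (adjusted p = 0.0174).

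For the difference in the IL-27 effect between genotypes, 0 of 9 member probe sets were called by limma, against 0.00745% of all probe sets called (0.00372% higher and 0.00372% lower). Of the 9, 0 had an unadjusted p under 0.05, a threshold at which the share of all probe sets was not taken. The differences were 0.04 ± 0.16 for Cd28 on 1417597_at, 0.11 ± 0.17 for the second probe set, 0.06 ± 0.20 for Tnfrsf18 and -0.15 ± 0.21 for Tnfrsf4. Their intervals ran from -0.29 to 0.38, from -0.24 to 0.46, from -0.35 to 0.48 and from -0.58 to 0.29, so that differences of either sign inside them are not excluded. These values depended on the scaling. As deposited they were 0.15, 0.21, 0.18 and -0.01. With median centring, where the median of all probe sets was 0.20, they were 0.40, 0.46, 0.43 and 0.23. None was called under either scaling. Between IL-27 and IL-6 in STAT3-deficient cells, 0 of 9 were called by limma, against 0.205% of all probe sets called (0.197% higher and 0.00745% lower). At an unadjusted p under 0.05, again without the share of all probe sets, there were 2 of the 9. The 2 were Cd28 on 1417597_at (-0.25 ± 0.11, adjusted p = 1.00) and Tnfrsf18, with 3814 to 5163 units with IL-27 below 5414 to 7373 units with IL-6 (-0.42 ± 0.14, adjusted p = 0.652).

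In medium, with quantile normalisation, STAT3-deficient cells carried more Tnfrsf4 signal than WT cells, and more Tnfrsf9 signal on 1460469_at. Neither call held in all alternatives, as given below. Of 9 probe sets, 2 were called higher and 0 lower, but 24.3% of all probe sets were called in this comparison (11.3% higher and 13% lower), so that the share of the members, 22.2%, is near that of all probe sets. Tnfrsf4 had 3138, 2772 and 3179 units in STAT3-deficient cells, against 2102, 2039.8 and 2039 units in WT cells. The ranges were apart, with a difference of 0.55 ± 0.15 (adjusted p = 0.0121). Tnfrsf9 on 1460469_at had 304, 474 and 241 units, against 186, 142 and 107 units, a difference of 1.05 ± 0.27 (adjusted p = 0.00969). All 3 STAT3-deficient arrays but only 1 of the 3 WT arrays were above background, so the size of this difference is set against a group mostly at background. The same order held with the cytokines: with IL-27 the arrays had 312, 318 and 366 units in STAT3-deficient cells, against 200.0, 159 and 90.5 units in WT cells, and with IL-6 they had 215, 387 and 263 units, against 132, 119 and 174 units. Neither cytokine gave a called difference from medium for Tnfrsf9 in either genotype. The other Tnfrsf9 probe sets, 1421481_at and 1428034_a_at, were below background on every array. They differed between the genotypes in medium by 0.10 ± 0.34 and -0.03 ± 0.51 and were not called.

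The genotypes differed in more than these members, and the values that moved with them stand here. The array medians as deposited were 131.5 to 190.3 units for STAT3-deficient and 104.4 to 126.8 units for WT arrays, so genotype and a difference in array scale cannot be told apart. The median of all probe sets was 0.00 in the main scaling, 0.18 as deposited and -0.36 with median centring. Tnfrsf9 was called higher under all 3 scalings (1.05, 1.44 and 0.90, each against the WT group mostly at background), whereas Tnfrsf4 was at 0.55 and 0.38 and then, with median centring, at -0.16 (adjusted p = 0.470). With the B cell markers as a covariate, Tnfrsf9 was at 0.66 and was not called (adjusted p = 0.414). The sums of these markers did not overlap between the genotypes, so that value extrapolates along the covariate. Without the second STAT3-deficient array in medium Tnfrsf9 was not called either. Cd28 on 1417597_at was lower in STAT3-deficient cells without overlap, at 10154, 10255 and 11802 units, against 12179.9, 13561 and 13526 units in WT cells, and was not called (-0.29 ± 0.11, adjusted p = 0.0710). The second Cd28 probe set overlapped (-0.05 ± 0.12). As deposited the first was called at -0.55 (adjusted p = 0.00266), and with median centring both were called lower, at -1.09 and -0.81 (adjusted p = 1.88e-05 and 0.000279), whereas with the B cell covariate the first was at 0.28 and not called (adjusted p = 0.204). Cd27 was at 0.08 ± 0.10 (adjusted p = 0.580) and turned to -0.57 with median centring (adjusted p = 0.00832).

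Of the genes around the members, Icos was lower in STAT3-deficient cells in medium, at -0.67 ± 0.14 (adjusted p = 0.00314). It was 1 of 4 called lower among the 15 related receptors, with Cd48 (-0.80), Slamf6 (-0.69) and Cd2 (-0.52), and 0 were called higher. Of the 8 ligands, Pdcd1lg2, a ligand of PD-1, was higher at 0.76 ± 0.21 and Tnfrsf14, the partner of BTLA, was lower at -1.45 ± 0.46 (adjusted p = 0.0148 and 0.0297). Of the 11 signalling partners, Nfkb2 was higher (0.55) and Grb2 lower (-0.35). With 24.3% of all probe sets called in this comparison, nothing is read from these counts. These related genes were read in the main scaling alone.

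**Figure D3:**
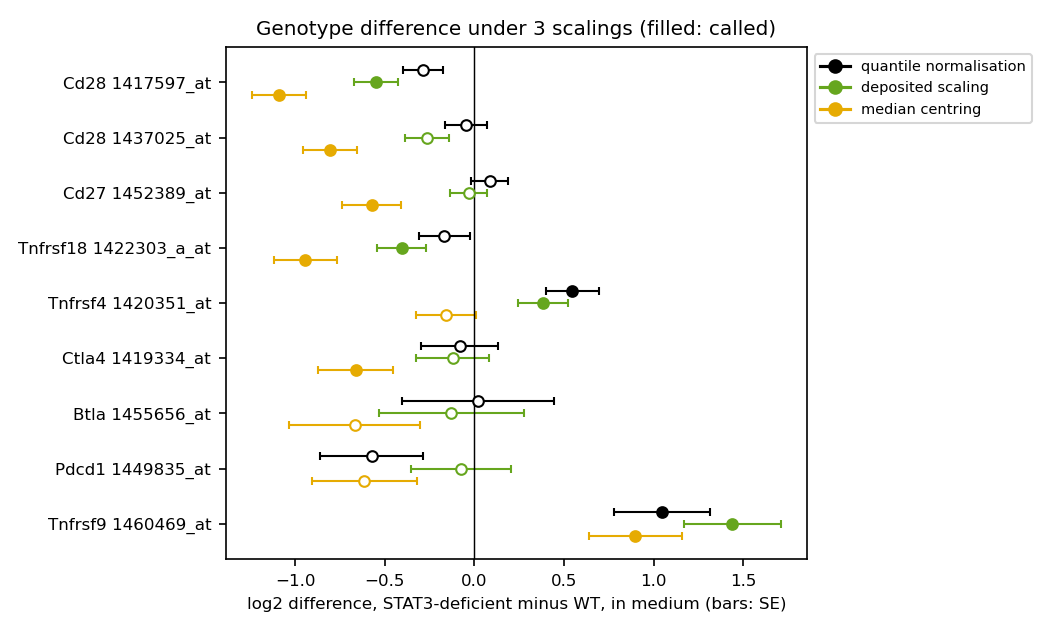
Log2 difference of STAT3-deficient minus WT cells in medium (horizontal axis) of the member probe sets under quantile normalisation, the deposited scaling and median centring; bars are the SE of the limma model and filled points are called. Tnfrsf9 lies above 0 under all 3 scalings, Tnfrsf4 falls below 0 with median centring, and Cd27 and Btla lie above 0 with quantile normalisation and below it under both other scalings.

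Ctla4 and Btla varied between the arrays of each STAT3-deficient group. Ctla4 had 799, 1411 and 1302 units with IL-27, 779.8, 1399.8 and 1255 units with IL-6 and 892, 1439 and 1278 units in medium, so the first array was the low one in each group. All neighbours in the order of its 6 group means overlapped, and it was called in none of the 9 comparisons. Btla had 1211, 1962 and 4495 units with IL-27, 1388, 2402 and 4428 units with IL-6 and 1746, 2511 and 4232 units in medium, with the arrays numbered 3 the highest each time. On the arrays in medium, the activated and memory T cell markers summed to 10708, 14832 and 27939 units and the B cell markers to 6371, 5549 and 3535 units, in the same order of arrays. With the B cell markers as a covariate, Btla was at 0.84 for IL-6 against medium in WT cells (adjusted p = 0.0180). For IL-27 against IL-6 in WT cells it was then at -0.67 and not called (adjusted p = 0.144). Between STAT3-deficient and WT cells in medium it was called at 2.54 (adjusted p = 0.00106), a value that extrapolates along the covariate. The part of the activated and memory markers was not tested. In each WT group too, the first array was the lowest for both genes. With IL-27, with IL-6 and in medium, these first WT arrays had 1178, 1393 and 1140 units of Ctla4 and 1872, 3952 and 1873 units of Btla. No difference of Btla between IL-6 and medium was called in STAT3-deficient cells (-0.11 ± 0.42, adjusted p = 0.983).

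The inhibitory receptors Pdcd1 and Lag3 and the other Tnfrsf9 probe sets lay at or near background. Pdcd1 had 69.9, 182 and 70.8 units with IL-27, 140.2, 161 and 107 units with IL-6 and 94.5, 137 and 101 units in medium in STAT3-deficient cells. In WT cells it had 91.5, 74.5 and 145 units with IL-27, 189, 199 and 152 units with IL-6 and 227, 174 and 145 units in medium. The 3 WT arrays with IL-6 were above background and lay above the 3 with IL-27. Those in medium overlapped the arrays with IL-6 in signal, but their background estimates were higher, and 1 of the 3 was above background. Pdcd1 was called in none of the 9 comparisons. Lag3 had 101, 12.9 and 13.4 units with IL-27, 96.1, 17.9 and 35.2 units with IL-6 and 16.8, 28.0 and 88.4 units in medium in STAT3-deficient cells. WT cells had 29.2, 18.3 and 6.00 units with IL-27, 3.91, 52.3 and 60.5 units with IL-6 and 25.2, 17.2 and 50.5 units in medium. No array of Lag3 exceeded its background estimate, and its order of groups is not read. The Tnfrsf9 probe sets 1421481_at and 1428034_a_at ranged from 12.3 to 129 and from 7.23 to 146 units, and the genotypes overlapped on both. With no filter, 0 of the 27 tests of these 3 dim probe sets were called by limma, the lowest adjusted p was 0.487, and 1 had an unadjusted p under 0.05.

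**Figure D4:**
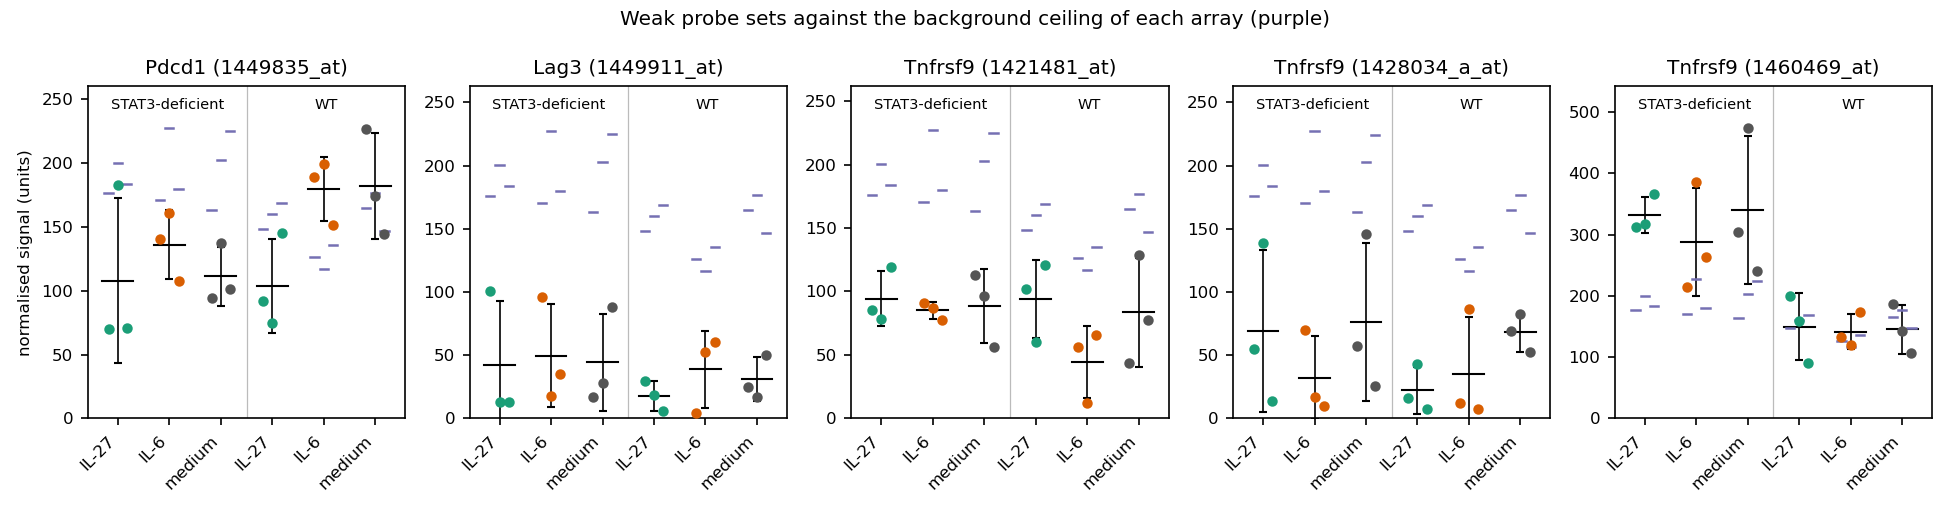
Normalised signal (units, vertical axis) of the 5 weak member probe sets by group, with the background estimate of each array as a purple dash; points are arrays, the line is the mean and the bar the SD (n = 3). Lag3 and 2 Tnfrsf9 probe sets lie under the dashes on all 18 arrays, Pdcd1 above them on 4 arrays and Tnfrsf9 1460469_at on 14 arrays.

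Across the 6 groups the order of the group means differed between members, and neighbours were mostly not separated by their spread. Cd27 was highest in STAT3-deficient cells in medium, followed by WT cells in medium, STAT3-deficient cells with IL-6, STAT3-deficient cells with IL-27 and WT cells with IL-27, each overlapping the next. WT cells with IL-6 came last and stood apart from all of them. Cd28 on 1417597_at was highest in WT cells in medium, which stood apart, and lowest in WT cells with IL-6, which overlapped STAT3-deficient cells with IL-27. On 1437025_at the same groups were highest and lowest. There WT cells in medium overlapped STAT3-deficient cells in medium, and WT cells with IL-6 stood apart. Tnfrsf4 was highest in STAT3-deficient cells in medium, which stood apart, and lowest in WT cells with IL-27. Tnfrsf18 was highest in WT cells in medium and lowest in STAT3-deficient cells with IL-27, and all neighbours in its order overlapped.

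The genes whose signal was most like that of a called member are given by Pearson's r over the 18 arrays, which share their genotype and scale differences, as a description. For Cd27 they were St8sia6 (0.953), Itga4 (0.950) and Ubash3a (0.931). For Cd28 they were Sox4 (0.941), Orai2 (0.930) and Smc4 (0.915), for Tnfrsf4 they were Fam107b (0.910), Ier5 (0.896) and Trbv13-2 (0.894), and for Tnfrsf18 they were Stx6 (0.876), Emp3 (0.876) and Dusp12 (0.846). For Tnfrsf9 they were Oga (0.907), Ptms (0.904) and Eif3b (0.902).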

How the data were processed

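Total RNA of sorted naive CD4 T cells was measured on 18 arrays in 6 groups of 3. The deposited values are intensity, a linear signal per probe set that the authors made with GCOS, per the submitters' processing notes. Its version, algorithm and annotation were not given in the sources used here. Every array has a mean of 500.0 once 2% of values is trimmed from each end. Of 45101 rows, 64 are controls, 932 others have several symbols and 9160 have none in the array annotation.

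After adding 32, signals were put on the log2 scale and quantile normalised, since array medians differed by 1.82-fold. Probe sets above the median of their own array on at least 3 arrays were kept, 26860 in all. A limma model (version 3.58.1, R 4.3.3) with a mean per group was fitted to all 18 arrays (12 residual and 6.39 prior degrees of freedom, variance trend), with two-sided tests in 9 comparisons. Tested on simulated data for IL-6 against medium in WT cells (26860 probe sets), it called 22% of simulated 1.5-fold changes, 68% of 2-fold ones and 99% of 4-fold ones. For the difference in the IL-6 effect it called 8%, 44% and 85%. Fewer probe sets were called in the simulation than in the data (153 against 1663, and 117 against 594). The adjusted threshold is stricter where fewer probe sets change, so these shares can be lower than those in the data. All members are named whatever their values. Of the related lists, the genes behind small counts and up to 4 with the largest called change are named, and 3 genes most like each called member. Members and lists were chosen with earlier results of these data known. The alternatives were other scalings, added constants and filters, 1 probe set per gene, no variance trend, array weights, fewer arrays, a B cell covariate and a replicate block. Protein sequences are not analysed here.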

Additional observations from a re-analysis of the deposited data

Results flagged for a closer look

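The IL-6 effect differed between the genotypes, by a test of the difference itself, for 2 members on 3 probe sets. The difference of STAT3-deficient minus WT cells was 0.76 for Cd27 (adjusted p = 0.00607), 0.82 for Cd28 on 1417597_at (adjusted p = 0.00698) and 0.81 for Cd28 on 1437025_at (adjusted p = 0.0116) on the log2 scale. The IL-6 effects behind them were -0.10, -0.25 and -0.22 in STAT3-deficient cells, against -0.86, -1.07 and -1.03 in WT cells. With median centring the uncalled effects in STAT3-deficient cells turned to 0.14, 0.07 and 0.06.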

How the results depend on the processing

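Of 19 calls of a member probe set, 6 held in all alternatives, namely Cd27 with IL-6 in WT cells, with IL-27 against IL-6 and in the difference of the IL-6 effect, Cd28 on 1417597_at with IL-6 in WT cells and in that difference, and Cd28 on 1437025_at with IL-6 in WT cells. Counts of called probe sets that moved were as follows. For IL-27 against medium in WT cells the 4 became 2 with median centring or with no variance trend, and 1 to 4 when 1 array was left out. For IL-27 against IL-6 in WT cells the 3 became 1 under the same settings and 1 to 3 without 1 array. For IL-27 against medium in STAT3-deficient cells the 3 became 1 with the deposited scaling, with no variance trend or with only the arrays compared, 0 with median centring, and 0 to 3 without 1 array. For STAT3-deficient against WT cells in medium the 2 became 4 with the deposited scaling (2 higher and 2 lower), 6 with median centring (1 higher and 5 lower), 1 with a filter at the 75th percentile, where fewer probe sets were tested, and 1 to 3 without 1 array. The counts for IL-6 against medium in WT cells and for the difference in the IL-6 effect were 3 to 4 and 3 to 3 without 1 array. The call of Tnfrsf18 with IL-6 in WT cells was also lost with median centring or with no variance trend. Between STAT3-deficient and WT cells in medium, median centring moved the median of all probe sets to -0.36 and turned the sign of Cd27 (-0.57), Tnfrsf4 (-0.16) and Btla (-0.67). It also turned uncalled differences of 6 probe sets with IL-6 in STAT3-deficient cells, among them Cd28, Cd27 and Tnfrsf18, of 3 with IL-27 in these cells, and of 1 and 4 in the genotype differences of the IL-6 and the IL-27 effect. The cause of the other changes was not tested.

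The sample numbers are not explained by the labels. Deviations of arrays with the same number correlated at -0.15 to 0.34 among STAT3-deficient and at -0.01 to 0.21 among WT arrays. In all, 12 of 18 arrays correlated best with their own number. The genotypes differed in this. Every WT array but the second with IL-27 did so, and all others that did not were STAT3-deficient. With the number within genotype as a replicate block, no call was lost. Btla was then called for IL-6 against medium (0.99, adjusted p = 8.97e-06), for IL-27 against IL-6 in WT cells (-1.05, adjusted p = 1.21e-05) and for the difference in the IL-6 effect (-1.09, adjusted p = 0.000349), as was Cd28 on 1437025_at for IL-27 in STAT3-deficient cells (-0.39, adjusted p = 0.00528). The block is nested in genotype, so it gave no value for STAT3-deficient against WT cells in medium.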
